A study of Arabidopsis thaliana with 4 samples.

Results

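Weak nucleosome calls on the chromosome arms were described in inflorescences of Arabidopsis thaliana. They were chosen by the caller's confidence score, and are the arm calls to which the authors' caller gave a confidence score of 0.25 or less. There were 53826 of them among 1019972 arm calls and 1253289 calls in all, summed over 4 lists. The lists held 14158 and 16642 weak arm calls for replicates 1 and 2 of top1a-2, and 8832 and 14194 for replicates 1 and 2 of Ler. Arms were the parts of the chromosomes over 2.5 Mb from the positions taken as centromeres, which lie at 15, 3.6, 14, 4 and 12 Mb on chromosomes 1 to 5, and they covered 92.2 Mb.

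The plants were top1a-2, named for a mutant allele of the gene for TOP1α, and Landsberg erecta (Ler), the accession that all 4 samples are labelled with. Both genotypes gave inflorescences with unopened buds, a mixed tissue, and there were 2 libraries of each. The titles of the mutant samples read only TOP1α with a replicate number, and were matched to top1a-2 because the design text of the series names no other genotype besides Ler. The labels name no age, treatment or further allele, do not say what the allele does to the protein, and do not say whether the replicates came from separate plants. Each genotype has 2 libraries, so an exact permutation test, two-sided and with 6 possible assignments of the labels, cannot go below p = 0.33, and its p-values measure only the spread between these libraries, which may be technical.

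A nucleosome is DNA wrapped around a core of histone proteins. Micrococcal nuclease cuts the linker DNA between nucleosomes more readily than the wrapped DNA, so sequenced fragments of the wrapped length mark where nucleosomes sat in the sampled cells. A call collects such fragments over all cells of the tissue, so a position held in few cells and one held loosely in many cannot be told apart. TOP1α is a DNA topoisomerase I, an enzyme that nicks 1 strand of DNA and lets supercoils relax, including those that passing polymerases and the wrapping of nucleosomes leave behind. The series asks how TOP1α bears on nucleosome density. The lists show more calls and closer calls in top1a-2, so the weak calls were set against that difference.

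The score chose the calls and is not a finding about them. Besides the score, each call carries a fuzziness (how far its position spreads, in bp), a size in bp, and forward and reverse votes, which are the caller's own support values for each strand on a scale that is not given. The median score of the weak calls was 0.173 and 0.177 in top1a-2 and 0.182 and 0.176 in Ler, against 0.826 and 0.788 for all arm calls in top1a-2 and 0.863 and 0.843 in Ler. Just inside the threshold, calls with scores from 0.24 to 0.25 had a median fuzziness of 32 and 35 bp for top1a-2 beside 34 and 36 bp for Ler. Just outside it, at 0.25 to 0.26, the medians were 33 and 35 bp for top1a-2 beside 34 and 37 bp for Ler. The distances to the nearest stronger call were also alike on both sides, at 223 and 250 bp for top1a-2 beside 227 and 255 bp for Ler inside, and 225 and 242 bp for top1a-2 beside 220.5 and 255.5 bp for Ler outside.

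Weak calls were a small part of the arm lists, and their share did not separate the genotypes. They made up 5.14% and 6.47% of arm calls for replicates 1 and 2 of top1a-2 and 3.44% and 6.15% for replicates 1 and 2 of Ler. Ler replicate 1 stood low, and Ler replicate 2 lay between the mutant libraries. The means were 5.81% ± 0.943 for top1a-2 beside 4.79% ± 1.91 for Ler (SD, n = 2 each), a difference of 1.012 percentage points that was smaller than the SD within Ler (exact permutation p = 0.667). Per kb of arm there were 0.1536 and 0.181 weak calls in top1a-2 and 0.0958 and 0.1540 in Ler, so the lower mutant library and the higher Ler library were almost equal (exact permutation p = 0.667). Without Ler replicate 1 the difference in share turned to -0.339 percentage points, and without Ler replicate 2 it was 2.36.

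**Figure D1:**
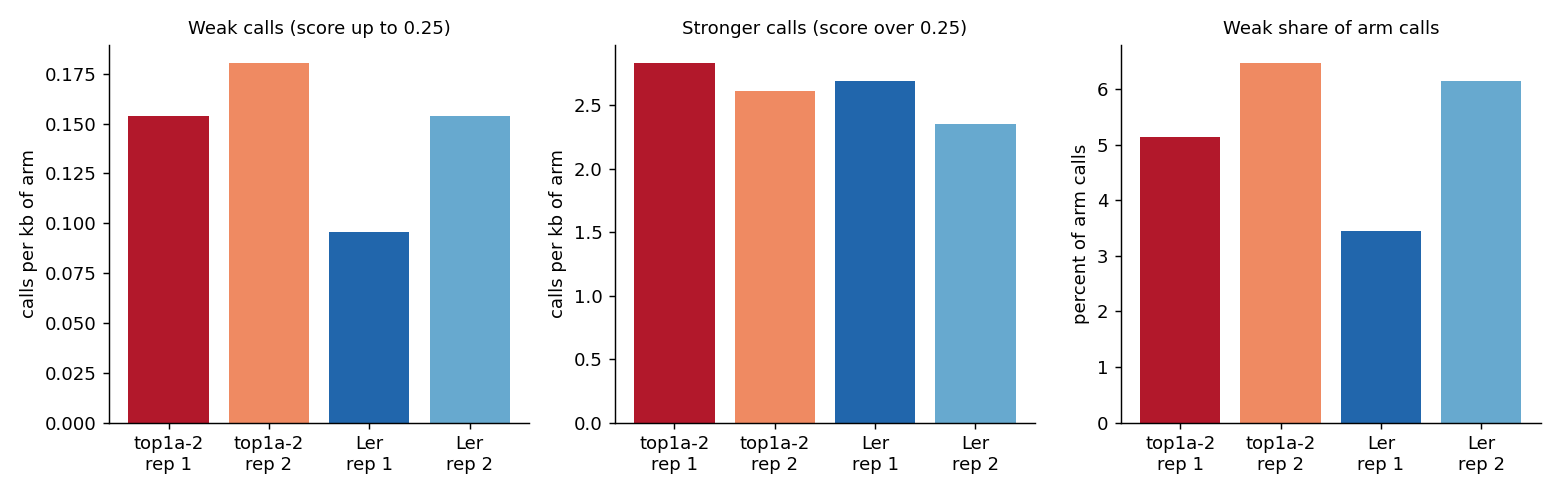
Weak calls per kb of arm, stronger calls per kb of arm and the weak share of arm calls in percent, 1 bar for each of the 2 top1a-2 and 2 Ler libraries. Ler replicate 1 has the fewest weak calls, at 0.0958 per kb, and Ler replicate 2 the fewest stronger calls, at 2.35 per kb.

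Weak calls were richer nearer the centromeres in every library. From 2.5 to 5 Mb out they made up 7.24% and 9.31% of arm calls in top1a-2 and 5.35% and 9.14% in Ler. From 12 to 20 Mb out the shares were 4.06% and 4.81% in top1a-2 and 2.46% and 4.27% in Ler. Inside the excluded 2.5 Mb, where transposon-rich heterochromatin lies, weak calls reached 10.09% and 13.6% in top1a-2 and 10.5% and 15.05% in Ler. The arms of chromosome 2 held the highest weak share in each list, with 7.59% and 8.25% for top1a-2 against 4.34% and 7.35% for Ler, and were the only chromosome arms on which both mutant libraries lay above both Ler libraries (exact permutation p = 0.33).

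Places rich in weak calls recurred from library to library. Over 924 windows of 100 kb on the arms, the weak share of a window ran from 0.351% to 20.0% and from 0% to 33.9% for replicates 1 and 2 of top1a-2, and from 0% to 24.1% and from 0% to 47.5% for replicates 1 and 2 of Ler. Its rank correlation between 2 libraries was 0.743 for the top1a-2 pair, 0.705 for the Ler pair, and 0.680 to 0.785 for the 4 pairs across the genotypes. These are descriptions across windows of shared DNA sequence, and windows are not replicates. The richest windows, picked after the values were seen, were chromosome 1 from 21400001 to 21500000 (coordinates of the lists, build not given), the first 100 kb of the list coordinates of chromosome 2, and chromosome 3 from 11200001 to 11300000. The chromosome 1 window held 7 weak of 49 calls and 20 of 59 in top1a-2, and 13 of 54 and 28 of 59 in Ler, so it was also thin in calls of any score. The chromosome 3 window was well covered, with 42 weak of 251 calls and 64 of 261 in top1a-2 and 41 of 248 and 59 of 269 in Ler.

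Windows were also tested 1 by 1 for a difference between the genotypes. With weak calls per window divided by the library mean, 0 of 883 windows reached an adjusted p of 0.05 with limma in either direction, or 0% called higher and 0% called lower. At an unadjusted p under 0.05 stood 68 windows, where 44 fall by chance, and 44 of the 68 were higher in top1a-2. For the weak share of a window, 0 of 924 passed (0% in each direction), and 28 had an unadjusted p under 0.05, where 46 fall by chance. The median window difference in share was 0.931 percentage points, positive in 77.1% of windows. With weak calls divided by the library mean, which takes out the offset between whole libraries, the difference was positive in 53.5% of windows. The window with the smallest p in both fits was chromosome 5 from 3400001 to 3500000 (list coordinates). It held 16 and 25 weak calls for top1a-2 against 3 and 5 in Ler, a log2 difference of 1.64 ± 0.45 (SE) with an adjusted p of 0.622 from limma, above the threshold. On chromosome 2 from 14800001 there were 20 and 27 weak calls for top1a-2 against 3 and 11 in Ler, and from 17400001 there were 17 and 13 for top1a-2 against 1 and 6 for Ler (limma adjusted p = 0.622 each). The strongest in the other direction lay on chromosome 3 from 17800001, with 8 and 9 weak calls for top1a-2 against 14 and 17 in those of Ler, and also on chromosome 5 from 22700001, with 11 and 15 for top1a-2 against 18 and 21 for Ler (limma adjusted p = 0.622 each). The last of the named windows, chromosome 3 from 10900001, held 27 and 38 weak calls in top1a-2 and 31 and 48 in Ler. In the fit of shares, chromosome 1 from 3200001, with 9 and 14 weak calls for top1a-2 against 3 and 2 in Ler, and chromosome 3 from 2400001, with 8 and 8 against 1 and 2, followed in the upward direction. Downward, the thin chromosome 1 window from 21400001 came first, then chromosome 4 from 14700001 with 4 and 3 weak calls for top1a-2 against 6 and 11 in Ler, and the chromosome 3 window from 17800001 again (limma adjusted p = 0.998 for all named shares).

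Weak calls were narrower than stronger ones, not more spread out. Their mean fuzziness was 26.8 and 30.0 bp for the 2 mutant libraries and 29.4 and 32.7 bp for the Ler ones. That of the calls above 0.25 was 38.2 and 39.4 bp for top1a-2 beside 39.7 and 40.2 bp for Ler. The gap was between -11.4 and -7.46 bp in the 4 libraries, in 1 direction in 4 of 4, which gives the smallest p the exact sign-flip test allows with 4 libraries (p = 0.125). Whether the caller uses the spread in its score is not stated, so the difference is a description and no independent finding. Between the genotypes the weak calls' mean fuzziness was 28.4 ± 2.21 bp for top1a-2 beside 31.1 ± 2.37 bp for Ler (SD, n = 2 each), with overlapping libraries (exact permutation p = 0.667). The libraries did not overlap for the lowest-scoring 10% of each list, with 29.8 and 31.7 bp for top1a-2 beside 33.0 and 34.0 bp for Ler.

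The low fuzziness came with a broad mix. Among weak calls, 49.0% and 38.2% had a fuzziness of up to 25 bp in top1a-2 and 41.6% and 29.3% in Ler, against 8.31% and 5.15% of stronger calls in top1a-2 and 4.52% and 3.16% in Ler. Yet 6.81% and 6.96% of weak calls in top1a-2 and 7.93% and 7.73% in Ler had a fuzziness over 50 bp. The stronger calls had nearly as many of these, with 6.15% and 6.05% in top1a-2 and 5.78% and 5.93% in Ler. At the very bottom stood 529 and 414 calls in top1a-2 and 250 and 278 in Ler with a score under 0.01. They had a median fuzziness of 1 bp and a median of 100% of their votes on 1 strand in every library. As a share of weak calls they made up 3.74% and 2.49% in top1a-2 and 2.83% and 1.96% in Ler, which overlap.

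**Figure D2:**
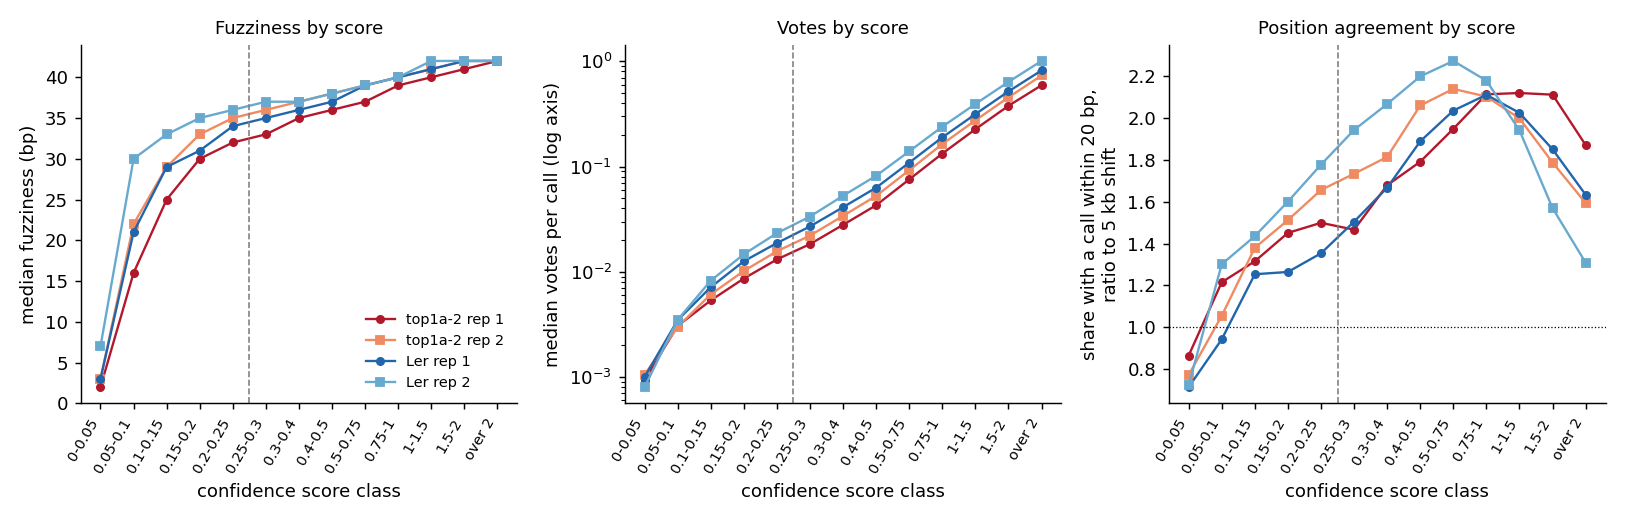
Median fuzziness in bp, median votes per call on a log axis, and the ratio of position agreement with the other 3 libraries within 20 bp to that after a 5 kb shift, by class of confidence score. Each line is 1 library of top1a-2 or Ler, the dashed line marks the score of 0.25 and the dotted line a ratio of 1. Fuzziness and votes climb steadily through the threshold. Agreement is below the shifted level in the lowest class in all 4 libraries, and in Ler replicate 1 also at scores from 0.05 to 0.1, with a ratio of 0.942. It falls again at the highest scores.

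Few votes stood behind a weak call, and they were less evenly split between the strands. The median was 0.00820 and 0.0101 votes in top1a-2 and 0.0127 and 0.0143 in Ler, against 0.129 and 0.149 for stronger calls in top1a-2 and 0.190 and 0.24 in Ler. The stronger calls had 15.7 and 14.8 times the votes of weak ones in top1a-2 and 14.9 and 16.8 times in Ler. Votes rise with the score, so this too belongs to the rule. Both mutant libraries had fewer votes per weak call than both Ler libraries (exact permutation p = 0.33), but so did the mutant lists as a whole, with a median of 0.120 and 0.136 votes over all arm calls in top1a-2 and 0.182 and 0.221 in Ler. Whether votes follow read depth was not tested. Calls with at least 90% of their votes on 1 strand made up 18.7% and 13.5% of weak calls in top1a-2 and 18.3% and 10.9% in Ler, against 2.62% and 0.847% of stronger calls in top1a-2 and 1.89% and 0.537% in Ler. The forward strand was slightly more often ahead in 4 of 4 libraries, in 52.0% and 51.3% of weak calls in top1a-2 and 53.2% and 51.7% in Ler. It was also ahead in 51.1% and 50.9% of stronger calls in top1a-2 and 51.2% and 51.3% in Ler.

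Weak calls were close to the size of a nucleosome. Their median size was 141.1 and 140.6 bp for the 2 mutant libraries and 138.6 and 138.7 bp for the Ler ones. The mutant libraries were both larger, by 2.24 bp on average, which exceeded the SD of 0.357 bp within top1a-2 and 0.116 bp within Ler (exact permutation p = 0.33). All stronger calls together showed no such split, with 144.9 and 143.0 bp for top1a-2 beside 145.1 and 142.9 bp for Ler. The split went on just above the threshold, however, with 140.5 and 140.3 bp for top1a-2 beside 139.1 and 138.2 bp for Ler at scores of 0.25 to 0.26, so it was not confined to weak calls. The weak median minus the stronger median was -6.52 to -2.35 bp in the 4 libraries (exact sign-flip p = 0.125, the smallest possible). They also held more extremes. Sizes under 100 bp made up 13.3% and 11.03% of weak calls in top1a-2 and 16.0% and 11.6% in Ler, against 3.27% and 2.59% of stronger calls in top1a-2 and 4.95% and 4.05% in Ler. Sizes over 200 bp made up 7.18% and 5.71% of weak calls in top1a-2 and 6.80% and 4.83% in Ler.

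Weak calls sat beside stronger ones, nearer than stronger calls sat to each other. The median distance of a weak call to the nearest stronger call was 224 and 247.5 bp for top1a-2 beside 232 and 269 bp for Ler, against 276 and 303 bp between stronger calls for top1a-2 beside 304 and 338 bp for Ler. The weak median minus the stronger median was -72 to -52 bp in the 4 libraries (exact sign-flip p = 0.125, the smallest possible). A call placed between 2 others is bound to be nearer to at least one of them than they are to each other, so part of this follows from the geometry. Distances under 100 bp were nearly absent, at 0.184% and 0.0661% of weak calls in top1a-2 and 0.215% and 0.0493% in Ler. Distances of 100 to 150 bp, at which 2 nucleosomes would overlap or touch, made up 12.8% and 9.12% in top1a-2 and 11.1% and 7.39% in Ler. The genotypes overlapped in the median distance (exact permutation p = 0.667).

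The narrowness of weak calls went with their closeness to a stronger call. At 100 to 150 bp their median fuzziness was 15 and 18 bp for top1a-2 beside 17 and 22 bp for Ler. At 300 to 500 bp it was 34 and 36 bp for top1a-2 beside 36 and 37 bp for Ler. The weak calls far from any stronger call were closer in spread to stronger calls, whose medians were 39 and 40 bp for top1a-2 beside 40 and 40 bp for Ler. Those medians are over stronger calls at all distances. The fuzziness of stronger calls was not examined by distance, so whether it shows the same pattern is not known. Weak calls at least 500 bp from a stronger call were a smaller share of weak calls in top1a-2, with 7.78% and 10.2% against 10.7% and 13.9% in Ler (exact permutation p = 0.33). Their numbers overlapped, with 1101 and 1693 calls in top1a-2 and 944 and 1972 in Ler.

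The gap of the stronger array around a weak call spans the distances on both of its sides, so its width follows partly from the geometry. Gaps around stronger calls were not measured in the same way. The median distance between neighbouring stronger calls was 322 and 350 bp for top1a-2 beside 346 and 389 bp for Ler. The median distance between the stronger calls on either side of a weak call was 644 and 723 bp for top1a-2 beside 645 and 791 bp for Ler. Gaps of 1000 bp or more held 21.7% and 28.2% of weak calls in top1a-2 and 24.6% and 34.1% in Ler. A weak call was alone between its stronger neighbours in 63.0% and 52.2% of cases in top1a-2 and 59.2% and 47.9% in Ler. Runs of 3 or more weak calls held 13.7% and 22.3% in top1a-2 and 17.9% and 26.6% in Ler, and the longest run was 11 and 12 calls in top1a-2 and 13 and 12 in Ler.

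Gaps of a given width were more often filled by a weak call in top1a-2, a measure chosen after its values were seen. Of the gaps of 500 to 1000 bp between stronger calls, 21.8% and 18.5% held a weak call in the top1a-2 replicates against 10.06% and 10.8% for the Ler ones. The means were 20.2% ± 2.39 for top1a-2 beside 10.4% ± 0.534 for Ler (SD, n = 2 each). The mean share in top1a-2 was 1.93 times that in Ler, a difference of 9.72 percentage points with no overlap (exact permutation p = 0.33). With the lowest-scoring 10% of each list taken as weak, which gives all lists the same weak share, the values were 35.3% and 25.5% in top1a-2 and 25.3% and 15.6% in Ler, so the nearest libraries of the genotypes almost met. At 500 to 700 bp the shares were 15.7% and 12.7% for top1a-2 against 7.13% and 7.22% for Ler. At 700 to 1000 bp they were 53.8% and 48.1% for top1a-2 against 32.9% and 27.0% for Ler. The gaps themselves differed in number, with 20898 and 28524 of 500 to 700 bp in top1a-2 against 26887 and 41066 in Ler. Of 700 to 1000 bp there were 4006 and 5563 in top1a-2 against 3452 and 9095 in Ler. A higher share is therefore not a higher number of filled gaps to the same degree. The mutant libraries also lay above both Ler libraries in each class from 250 to 500 bp, where the shares were at most 5.01%. In gaps of 1000 bp or more the genotypes overlapped, with 75.3% and 82.3% in top1a-2 and 69.5% and 76.1% in Ler. The lists with a higher share of filled gaps are also those with fewer votes per call, whose part in the result was not tested.

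**Figure D3:**
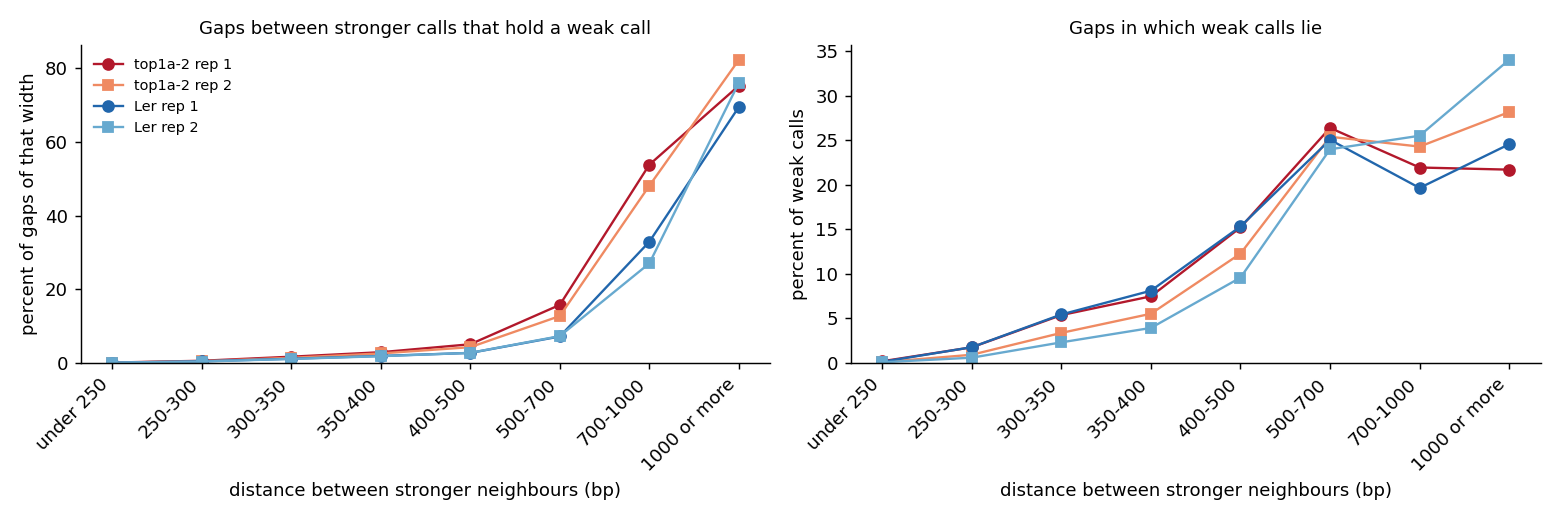
Left, the percent of gaps between neighbouring stronger calls that held at least 1 weak call, by gap width in bp, and right, the percent of weak calls lying in gaps of each width, with 1 line for each library of top1a-2 and Ler. From 500 to 1000 bp both top1a-2 libraries lie above both Ler libraries on the left, while on the right the libraries cross.

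Positions of weak calls were shared between libraries less often than those of stronger calls, but above the level after a shift. A weak call had a call of any score within 20 bp in another library in 15.004% and 16.1% of cases for top1a-2 and 13.5% and 18.0% for Ler, averaged over the 3 other libraries. After the positions were shifted by 5 kb either way the shares were 11.1% and 11.3% for top1a-2 and 11.1% and 11.7% for Ler. The ratio, taken for each other library and then averaged over the 3, was 1.36 and 1.44 for top1a-2 and 1.23 and 1.54 for Ler. Stronger calls had 1.99 and 2.00 in top1a-2 and 1.97 and 2.01 in Ler, higher in 4 of 4 libraries (exact sign-flip p = 0.125, the smallest possible). In the lowest class, with scores up to 0.05, the ratio fell below 1 in every library, at 0.864 and 0.772 in top1a-2 and 0.713 and 0.723 in Ler. It was 1.4996 and 1.66 in top1a-2 and 1.35 and 1.78 in Ler at scores from 0.2 to 0.25. The ratio did not keep rising with the score. At scores from 0.5 to 0.75 it was 1.95 and 2.14 in top1a-2 and 2.04 and 2.27 in Ler. Over a score of 2 it was down to 1.87 and 1.59 in top1a-2 and 1.63 and 1.31 in Ler. In Ler replicate 2 that value lay below the 1.54 of its weak calls.

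Agreement within a genotype and between the genotypes overlapped. The top1a-2 pair gave ratios of 1.29 and 1.33 in its 2 directions and the Ler pair 1.33 and 1.63. Weak calls of top1a-2 looked up in Ler lists gave 1.37 to 1.503, and those of Ler in top1a-2 lists 1.10 to 1.54. The 12 directions share libraries, so they are given as a description. Per library, the mean ratio across the genotypes was 1.39 and 1.49 for top1a-2 and 1.17 and 1.499 for Ler (exact permutation p = 1).

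A weak call was met by another weak call far more often than after a shift, and by a stronger call mostly less often. In the 12 directions, 4.59% to 10.8% of weak calls had a weak call of the other library within 20 bp, against 0.444% to 0.950% after the 5 kb shift, a ratio of 9.29 to 13.2. A stronger call within 20 bp was found for 3.97% to 12.7%, against 9.33% to 11.7% after the shift. This ratio was under 1 in 9 of the 12 directions and from 1.00 to 1.16 in the 3 that looked into Ler replicate 1, the list with the fewest weak calls. The ratio for weak to weak was 9.29 for the top1a-2 pair, 13.2 for the Ler pair and 9.85 to 11.8 across the genotypes. The ratio was smaller with shorter shifts. With a shift of 0.5 kb the ratio was 3.75 to 4.11 over the 4 libraries, and with 1 kb it was 5.58 to 6.12.

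The agreement of weak calls differed with their distance to the stronger calls of their own list. Within 150 bp of a stronger call, weak calls had a partner less often than after the shift, with ratios of 0.797 and 0.851 in top1a-2 and 0.846 and 0.787 in Ler. At 500 bp or more the ratios were 2.54 and 2.08 in top1a-2 and 2.26 and 2.11 in Ler. The agreement of stronger calls was not examined by distance, so whether they show the same pattern is not known. Fuzziness mattered less evenly. Weak calls of fuzziness 0 to 10 bp had ratios between 1.05 and 1.20 in the 4 libraries, those of 26 to 40 bp between 1.29 and 1.71, and those over 40 bp between 0.993 and 1.19. Over classes of size the ratio ran from 1.16 to 1.69, and over classes of the vote split between strands from 1.09 to 1.63.

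**Figure D4:**
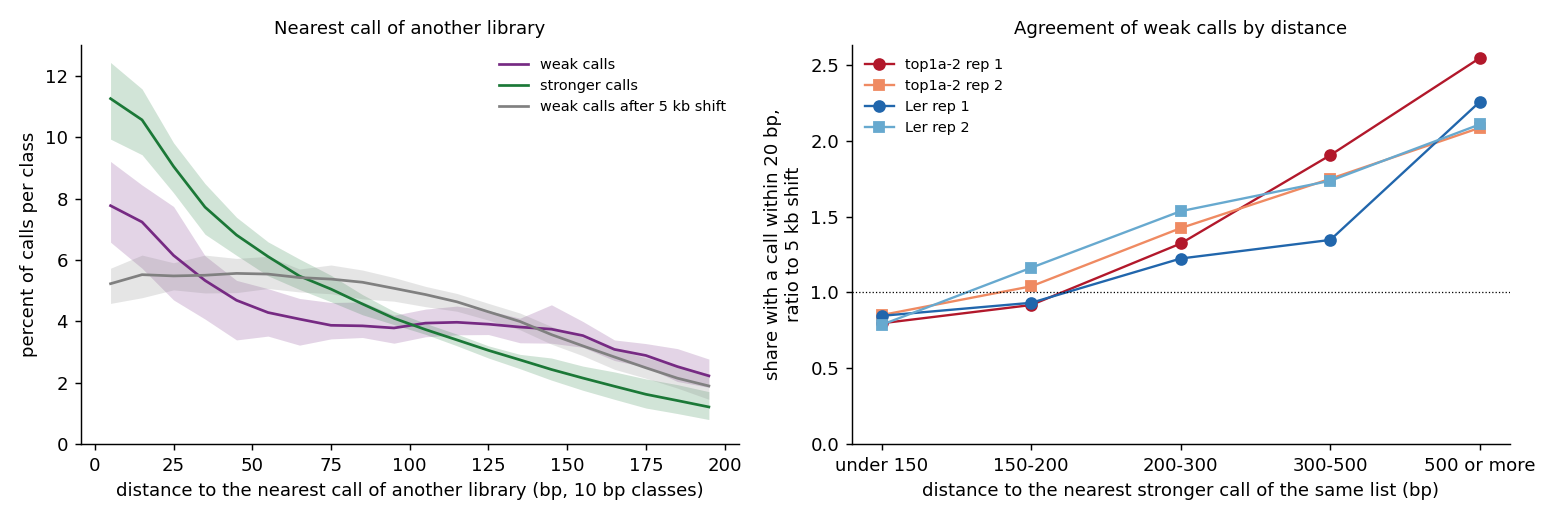
Left, the percent of calls by distance in bp to the nearest call of another library in classes of 10 bp, as the mean (line) and the range (band) over the 12 directions between libraries, for weak calls, stronger calls and weak calls shifted by 5 kb. Right, the ratio of weak calls with a partner within 20 bp to the same after the shift, by distance to the nearest stronger call of the same list, 1 line per library of top1a-2 and Ler. Under 10 bp stood 7.77% of weak calls, 11.3% of stronger calls and 5.23% of shifted weak calls, and the ratio climbs from below 1 to above 2 with distance.

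At 46 places a weak call of top1a-2 replicate 1 had a weak call of each of the 3 other lists within 20 bp, against 0 and 3 after shifts of 5 kb in the 2 directions. The tightest, chosen after the values were seen, was on chromosome 1 at positions 2788594 and 2788593 for the 2 mutant libraries and 2788592 and 2788591 for the Ler ones. Its score was 0.189 and 0.206 in top1a-2 and 0.149 and 0.149 in Ler. Its fuzziness was 61 and 24 bp for top1a-2 beside 4 and 6 bp for Ler. The place was picked for its close positions, so it cannot show whether fuzziness varies more than position. The contrast in fuzziness did not recur at the places on chromosomes 2 and 3 described next. There the values were 18 and 23 bp for top1a-2 beside 8 and 28 bp for Ler on chromosome 2. On chromosome 3 they were 26 and 22 bp for top1a-2 beside 34 and 33 bp for Ler. On chromosome 2 a weak call lay at 55370 and 55366 in top1a-2 and 55370 and 55372 in Ler, with long sizes of 230.6 and 227.9 bp for top1a-2 beside 229.4 and 199.2 bp for Ler. It stood 1028 and 911 bp from the nearest stronger call for top1a-2 beside 900 and 895 bp for Ler. On chromosome 3 a weak call at 19417821 and 19417819 in top1a-2 and 19417827 and 19417821 in Ler was also isolated, 930 and 918 bp from a stronger call for top1a-2 beside 939 and 927 bp for Ler. Its sizes were 164.3 and 179.7 bp for top1a-2 beside 136.4 and 3.87 bp for Ler, so the call of Ler replicate 2 was far below the size of a nucleosome. No gene is named at these places, because the build of the lists is not given.

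Weak calls made up a minor part of the extra calls of top1a-2 on average, and the part depended on the libraries set against each other. The arms held 275443 and 257078 calls in top1a-2 and 256502 and 230949 in Ler, a mean difference of 22535 calls. Of these, 3887 were weak (17.2%) and 18648 were stronger (82.8%). Weak calls were 5.81% of all arm calls in top1a-2 and 4.79% in Ler, so on these means they were over-represented among the extra calls. The mean number in top1a-2 was 1.34 times that in Ler for weak calls and 1.08 times for stronger calls, with overlapping libraries in both (exact permutation p = 0.667 each). The weak part was 67.3% without Ler replicate 2, 38.4% without top1a-2 replicate 1, 8.34% without top1a-2 replicate 2 and 3.42% without Ler replicate 1. With the weak calls removed there were 2.83 and 2.61 calls per kb in top1a-2 and 2.69 and 2.35 in Ler, so the genotypes overlapped (exact permutation p = 0.667). With them, the lower mutant library at 2.789 calls per kb had slightly exceeded the higher Ler library, which had 2.783 (exact permutation p = 0.33). The 2 libraries that meet there differed by 576 calls, top1a-2 replicate 2 minus Ler replicate 1 being 7810 for weak calls and -7234 for stronger calls.

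Removing the weak calls left most of the excess of close neighbours in top1a-2. Neighbours under 200 bp apart made up 11.8% and 9.01% of neighbouring arm pairs in top1a-2 and 7.72% and 6.32% in Ler. Among stronger calls alone they made up 9.45% and 6.46% in top1a-2 and 6.09% and 4.22% in Ler, still without overlap (exact permutation p = 0.33). The share fell in both genotypes. The top1a-2 mean was 1.48 times the Ler mean with the weak calls and 1.54 times without them, so the relative excess did not shrink. The mean difference was 3.38 percentage points with the weak calls and 2.80 without them, so their removal took away 17.2% of the difference in points. The part taken away was 34.3% without top1a-2 replicate 1, where the difference was 1.99 percentage points with the weak calls and 1.31 without them. It was 30.6% without Ler replicate 2, with differences of 2.68 and 1.86 percentage points. Without top1a-2 replicate 2 it was 10.09%, with differences of 4.77 and 4.29, and without Ler replicate 1 it was 8.43%, with differences of 4.08 and 3.74. Top1a-2 replicate 2 and Ler replicate 1 differed by 1.29 percentage points with the weak calls and by 0.370 without them. The median neighbour distance over all arm calls was 312 and 335 bp for top1a-2 beside 338 and 373 bp for Ler. These values did not overlap (exact permutation p = 0.33). Among stronger calls alone the distance was 322 and 350 bp for top1a-2 beside 346 and 389 bp for Ler. Here the genotypes overlapped (exact permutation p = 0.667). The mean difference was -32 bp with the weak calls and -31.5 bp without them.

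Counted as pairs, 7790 and 7615 close pairs of the top1a-2 replicates and 4700 and 5446 of the Ler replicates held a weak call. These were 23.99% and 32.9% of all close pairs in top1a-2 and 23.8% and 37.3% in Ler. Pairs with a weak call were close in 30.8% and 26.7% of cases in top1a-2 and 30.3% and 22.9% in Ler, and pairs of 2 stronger calls in 9.87% and 6.80% in top1a-2 and 6.26% and 4.41% in Ler. Of the mean difference of 10623 close pairs between the genotypes, 2629.5 held a weak call (24.8%), and 17.1% to 42.6% when 1 library was left out. The lower fuzziness of top1a-2 was treated in the same way. Narrow calls (fuzziness 25 bp or less) formed 10.4% and 7.29% of arm calls in top1a-2 and 5.80% and 4.77% in Ler, and after removal of the weak calls 8.31% and 5.15% in top1a-2 and 4.52% and 3.16% in Ler. The mean difference was 3.56 percentage points before and 2.89 after, without overlap in either case (exact permutation p = 0.33 each). As a ratio, the top1a-2 mean was 1.67 times that of Ler before and 1.75 times after.

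**Figure D5:**
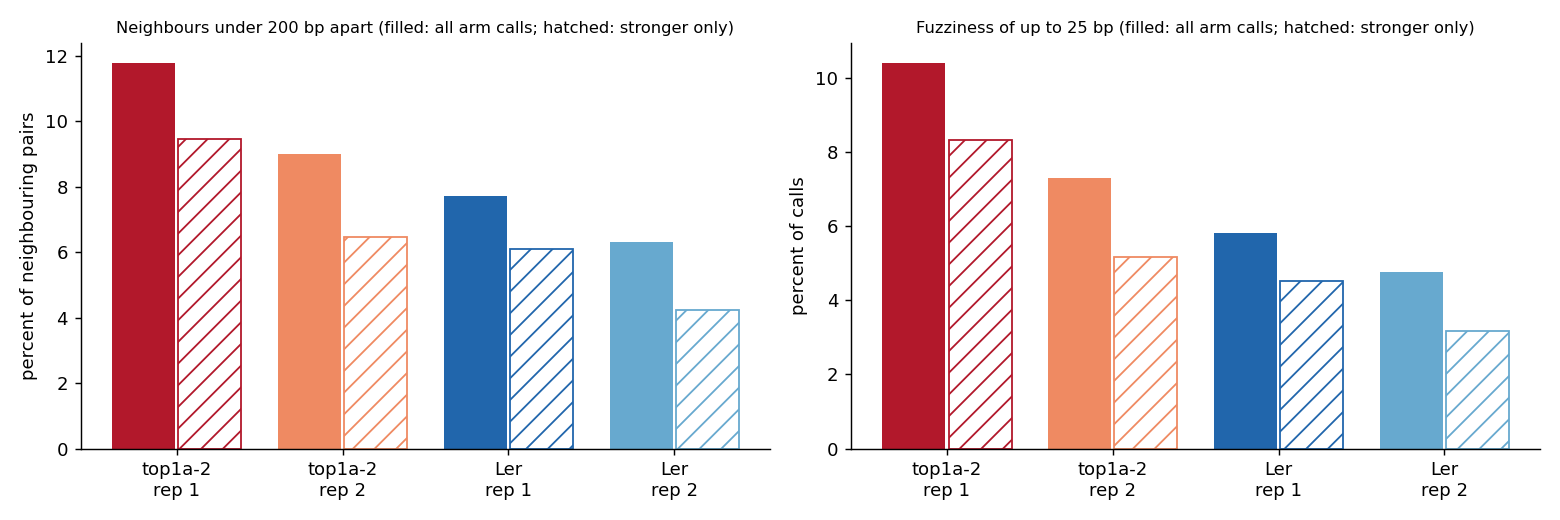
Percent of neighbouring arm pairs under 200 bp apart, left, and percent of arm calls with fuzziness at or under 25 bp, right, in the 2 top1a-2 and 2 Ler libraries, for all arm calls (filled bars) and for calls with a score over 0.25 (hatched bars). Both top1a-2 libraries stand above both Ler libraries with and without the weak calls.

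Over the 141 measures compared in this way across the 4 libraries, the lowest Benjamini-Hochberg adjusted p of the exact permutation test was 0.797. The libraries of the genotypes did not overlap in 54 of the 141 and overlapped in 87. By chance a share of 0.33 would be without overlap, and many of the measures depend on one another.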

How the data were processed

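The labels' protocols describe nuclei from ground inflorescences digested with micrococcal nuclease, a gel band near the mononucleosome length, and TruSeq libraries sequenced on a HiSeq2000. The authors deposited 1 list of nucleosome calls per library. Per the file headers each call has a chromosome, position, fuzziness, size, confidence score and 2 votes. The deposited scores and votes are the caller's own values. No source used here gives their scaling, the caller, the aligner or the build, and the mean score was 1.01 to 1.02 in each library. Read depth is unknown, so no counting interval is given.

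The last calls lay 356 to 439 kb before the last genes of a TAIR10.1 gene table, so neither genes nor sequences were assigned, and coordinates are those of the lists. The members, measures and lists were chosen with earlier results of these data known.

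Genotypes were compared with the exact permutation test. Weak calls with low values were not filtered. Agreement is how often a call has one from another list within 20 bp, against shifts of 5 kb in both directions. Windows of 100 kb with a mean of at least 5 weak calls were fitted on log2(weak calls divided by the library mean + 0.1), and those with at least 20 calls on the weak percent, with limma 3.58.1 (variance trend) in R 4.3.3, which was tested on simulated data. Windows were to be named by size of change (up to 3 higher and 3 lower) if they passed the test. Because 0 passed, the 3 of smallest p on each side are given. Other values were computed with Python 3.11.15 and pandas 2.3.3. Alternatives were score thresholds of 0.20 and 0.30, the lowest-scoring 10% of each list, other arm limits, sizes, tolerances, shifts and windows, a replicate block, and leaving out each library.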

Additional observations from a re-analysis of the deposited data

How the results depend on the processing

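Of 160 alternatives for 13 results, 155 kept the direction or the number of windows. Leaving out 1 library cannot turn a direction where the genotypes do not overlap, so those alternatives test nothing. Others could not change a result either. Close neighbours among all arm calls do not depend on the score threshold, and stronger calls are untouched when scores under 0.01 are dropped. The replicate block keeps the mean difference of every single measure. The count of 155 therefore overstates what was tested. The weak share ranged from -0.339 to 2.36 percentage points without 1 library, the distance to the nearest stronger call from -33.2 to 3.75 bp, and the agreement ratio across genotypes from -0.0546 to 0.272. That ratio, 0.109 higher in top1a-2, also turned to -0.0323 for the lowest-scoring 10% of each list. The cause was not tested. At score thresholds of 0.20 and 0.30 and on arms over 4 Mb from the centromere positions, the weak calls per kb no longer overlapped between the genotypes, but only narrowly. The lower mutant and the higher Ler library had 0.0999 and 0.0990 at 0.20. They had 0.2247 and 0.2211 at 0.30, and 0.1394 and 0.1361 over 4 Mb out. For the lowest-scoring 10% neither weak nor stronger calls per kb overlapped, but both are then fixed shares of all arm calls per kb. They only repeat that measure, with 2.789 in the lower mutant library and 2.783 in the higher Ler library. Mean fuzziness ceased to overlap for the lowest-scoring 10%, and also with the threshold scaled to the median score of each list. The filled gaps of 500 to 1000 bp, added with their alternatives after the data were seen, differed by 7.22 to 12.1 percentage points under other thresholds. With the replicate block 0 windows passed for weak calls and 1 for the weak share, which was lower in top1a-2, against 0 without it. Libraries with equal numbers share nothing else in the labels, and their deviations correlated with r = 0.0852 for weak calls and 0.292 for the share. For single measures the block left the mean differences as they were, with an exact sign-flip test that cannot go below p = 0.5. The weak share under the lowest-scoring 10% is fixed by construction and was not run. Unknown read depth limits all values.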
